A study of Mus musculus with 24 samples.

Results

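The 10 genes described here encode digestive enzymes of the pancreatic acinar cell and, for Clps, a cofactor here counted among the enzymes. They were followed in RNA sequencing libraries of sorted splenic T cells. They are Amy2a1, Prss2, Ctrb1, Cpa1, Cpb1, Cela1, Cela2a, Pnlip, Cel and Clps, which are 10 of 35868 genes summed from the deposited tables. They were chosen by their measured levels in these libraries, as transcripts more abundant in Cat-Tg than in WT cells pre-tx, so the pre-tx difference is given below as a description and not as a result. All 10 passed the filter on low counts in both cell types, to which the 3 Cat-Tg pre-tx libraries alone were enough.

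Cat-Tg mice carry a transgene of human β-catenin lacking its N terminus in p1017, a vector with the proximal Lck promoter, are heterozygous for it, and have a C57BL/6 background after founders made in FVB. CD4+ or CD8+ T cells of Cat-Tg or WT mice were sorted from fresh splenocytes of 3 mice per genotype (pre-tx), or on day 7 from the spleens of 3 lethally irradiated BALB/c recipients per genotype by the donor marker H-2Kb (post-tx). The recipients had been given the CD4+ and CD8+ donor T cells mixed in equal numbers with T cell-depleted bone marrow of WT mice, so all post-tx groups share the WT marrow and the irradiated host. There were 8 groups of 3 libraries; the labels give no age of the animals, and because CD4+ and CD8+ cells were sorted from each mouse, the 2 cell types of a genotype and time share animals. The prefix of the library names is one for all Cat-Tg and another for all WT libraries, so library series and genotype cannot be told apart.

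An acinar cell stores its enzymes in zymogen granules, the proteases among them as inactive precursors. It releases them into the duct that leads to the gut. Its enzyme genes are driven together by PTF1, a complex of PTF1A, a class A E protein and RBPJL (or RBPJ), which is known to bind an E-box next to a TC box. T cells are not known as a source of this set of transcripts, and the tail of the pancreas lies against the spleen.

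The bases just before the start site are shown for 4 of the enzymes, Prss2, Cela1, Cela2a and Cel. These are the members whose window holds both letter groups of the PTF1 site, at any distance from each other. Each window covers 250 bases up to the start site from RefSeq (GRCm38.p6), on the strand of the gene. The coordinates are chr6:41521526-41521775 on the plus strand for Prss2 and, on the minus strand, chr15:100687921-100688170 for Cela1, chr4:141826006-141826255 for Cela2a and chr2:28563404-28563653 for Cel. Capitals mark the E-box letters CACCTG, the TC box letters TTTCCC and the TATA box letters TATAAA, each searched on both strands, so that a match on the opposite strand appears as its reverse complement. No match of one motif overlapped with one of another in these 4 windows.
Prss2: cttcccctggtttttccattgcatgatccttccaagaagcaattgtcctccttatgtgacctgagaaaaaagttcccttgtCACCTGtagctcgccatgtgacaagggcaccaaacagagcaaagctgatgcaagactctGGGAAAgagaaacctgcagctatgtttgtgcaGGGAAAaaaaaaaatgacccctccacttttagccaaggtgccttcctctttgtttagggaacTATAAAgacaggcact
Cela1: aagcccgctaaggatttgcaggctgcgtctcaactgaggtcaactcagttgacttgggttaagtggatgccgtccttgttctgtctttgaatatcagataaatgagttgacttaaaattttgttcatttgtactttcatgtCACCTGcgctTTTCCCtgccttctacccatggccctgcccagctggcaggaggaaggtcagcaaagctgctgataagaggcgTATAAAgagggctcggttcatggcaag
Cela2a: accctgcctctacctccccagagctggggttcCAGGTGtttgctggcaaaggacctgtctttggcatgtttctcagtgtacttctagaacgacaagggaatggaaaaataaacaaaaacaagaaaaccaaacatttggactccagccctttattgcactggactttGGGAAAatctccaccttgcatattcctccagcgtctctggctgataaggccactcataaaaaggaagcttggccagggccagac
Cel: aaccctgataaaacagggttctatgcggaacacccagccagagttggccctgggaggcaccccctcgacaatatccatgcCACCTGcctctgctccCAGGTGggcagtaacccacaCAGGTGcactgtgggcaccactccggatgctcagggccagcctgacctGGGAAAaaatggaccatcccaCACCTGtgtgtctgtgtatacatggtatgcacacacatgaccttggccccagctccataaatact

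Windows were found for 9 of the 10 members, all but Clps. The E-box letters were in 5 of the 9 windows and in 17.2% of 32851 windows of the same length. The TC box letters were in 6 of 9 against 21.9%, the TATA letters in 3 of 9 against 12.4%, and the E-box and TC box letters together in 4 of 9 against 3.61%. In Cela1 the E-box letters began at −109 and the TC box letters at −99, counted from the base before the start site as −1. A match of letters is not evidence of a bound site.

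The 24 libraries held between 11135713 and 50519825 estimated counts, so that 3 counts correspond to between 0.0594 and 0.269 CPM, counts scaled to the library total. Levels below are CPM after TMM, a factor per library that balances the bulk of the genes, unless TPM, which also divides by transcript length, is named. The coreceptors matched the labels in 18 libraries but not in the 6 labelled WT pre-tx. There, Cd4 was at 81.0 to 106 CPM in the libraries labelled CD8+ and at 70.4 to 141 CPM in those labelled CD4+, and Cd8a at 92.7 to 149 and 133 to 155 CPM. The summed level of 12 T cell genes was 1950 to 3370 CPM in the WT pre-tx libraries and 6850 to 10500 CPM in the Cat-Tg pre-tx libraries, and that of 12 B cell genes 11500 to 15400 and 1050 to 3150 CPM. Libraries are therefore named by their labels, and every pre-tx comparison with WT below rests on these 6 libraries.

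Before transplantation the 10 enzymes summed to 352 to 464 CPM in the 6 Cat-Tg libraries and to 15.3 to 34.7 CPM in the 6 WT libraries. Per library the sum was 404, 352 and 464 CPM in Cat-Tg CD8+ cells and 450, 416 and 446 CPM in Cat-Tg CD4+ cells. In the WT libraries it was 15.3 to 34.7 CPM in CD8+ and 23.4, 19.2 and 21.3 CPM in CD4+. The lowest Cat-Tg pre-tx library thus had 10.1 times the sum of the highest WT pre-tx library. The post-tx libraries were also lower than the Cat-Tg pre-tx libraries. The sum was 13.5 to 29.3 CPM in Cat-Tg CD8+, 64.0 to 106 CPM in Cat-Tg CD4+ and 15.3 to 45.0 CPM in WT libraries. The 6 Cat-Tg pre-tx libraries were above all 18 others, of which 12 are post-tx libraries. The genes were picked for high levels in these 6 libraries, so this is a description.

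**Figure D1:**
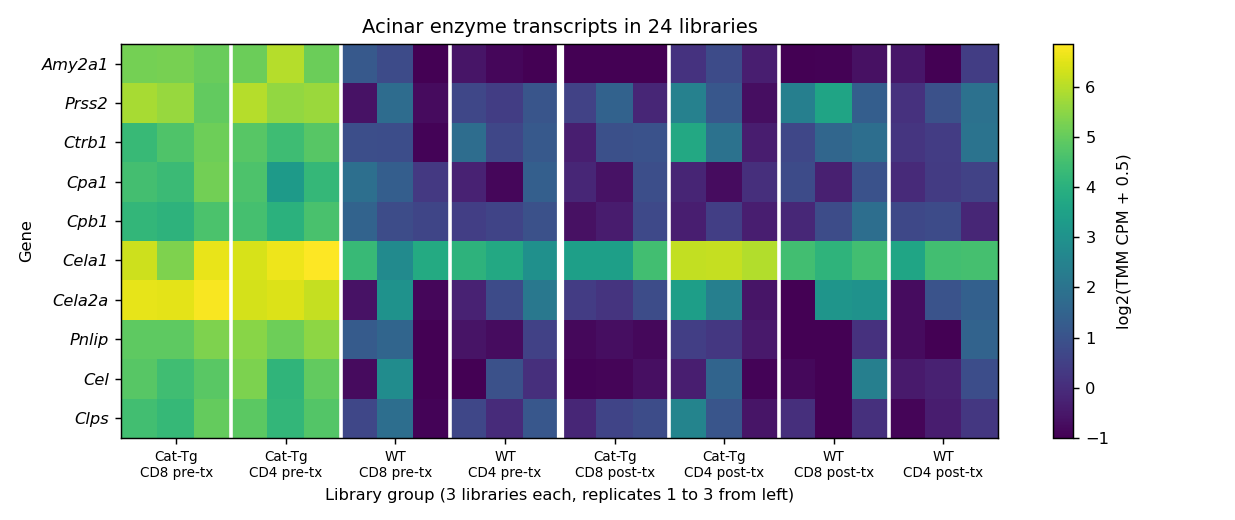
Colour gives log2(TMM CPM + 0.5) of each of the 10 enzymes (rows) in each of the 24 libraries (columns, 3 per group). All 10 rows are bright in the 6 Cat-Tg pre-tx libraries, and Cela1 alone stays bright in the 3 Cat-Tg CD4 post-tx libraries, at 61.9 to 71.2 CPM.

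Among the proteases, Prss2, an anionic trypsinogen whose product activates the other zymogens, ranged from 31.1 to 62.9 CPM over the 6 Cat-Tg pre-tx libraries with a median of 49.9, against 0.0815 to 2.93 in WT pre-tx. Ctrb1, a chymotrypsinogen that cuts after aromatic residues, was at 19.3 to 34.3 CPM against 0.0259 to 3.03. The carboxypeptidase genes Cpa1 and Cpb1, whose products trim the ends of the peptides so made, were at 9.26 to 35.8 against 0.0474 to 3.13 and at 15.9 to 24.4 against 0.877 to 2.33 CPM. No library of one genotype overlapped with the other for any of these 4 genes. The genes were picked on this contrast, and the share of all genes without such overlap is not given here.

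The elastases cut after small residues. Cela2a was the steadiest member, at 71.7 to 109 CPM in Cat-Tg pre-tx with a coefficient of variation of 14.2%, against 0.0519 to 7.52 in WT pre-tx. Cela1 was at 40.2 to 116 CPM against 6.23 to 19.0, and its lowest Cat-Tg library was 2.12 times the highest WT library, the narrowest gap of the 10. Cel followed with a gap of 2.59 times.

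Amy2a1, one of the pancreatic amylase genes that split starch, was at 33.1 to 63.2 CPM in Cat-Tg pre-tx and at 0 to 1.78 CPM in WT pre-tx. In CD4+ cells the WT libraries had 3.2, 1.1 and 0 counts, too few for a fold against the Cat-Tg mean of 43.6 CPM. The lipid enzymes were Pnlip, the pancreatic triglyceride lipase, Clps, the colipase that anchors it to bile salt-covered fat, and Cel, a lipase that needs bile salts. Pnlip was at 29.4 to 46.1 CPM against 0 to 2.46, Clps at 18.0 to 31.9 against 0.0259 to 3.10, and Cel at 17.1 to 39.1 against 0 to 6.60 CPM.

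In the fit across all genes, 9 of the 10, all but Cel, were higher in Cat-Tg CD8+ pre-tx cells at an adjusted p of at most 0.05, where 4.51% of 15975 genes were called higher, and 10 of 10 in CD4+ pre-tx cells, where 13.3% of 17243 were. The median log2 fold change of the members was 4.36 in CD8+ and 5.20 in CD4+ cells, beside −0.07 and 0.03 over all genes. In CD4+ cells it was 4.75 without Amy2a1. These counts follow from how the genes were picked.

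The proportions among the enzymes were read from TPM. In the 6 Cat-Tg pre-tx libraries Cela2a made up 15.2% to 24.8% of the summed TPM of the 10, with a mean of 20.1% ± 3.62 (SD, n = 6). Cela1 made up 10.2% to 24.6%, Prss2 9.57% to 19.8%, Amy2a1 8.95% to 18.0% and Clps 9.10% to 15.4%. The smaller shares were 5.96% to 9.45% for Ctrb1, 4.40% to 6.39% for Pnlip, 1.24% to 4.50% for Cpa1, 1.78% to 4.2% for Cel and 1.14% to 1.64% for Cpb1. Over the 9 enzymes without Cela1, each of the 6 libraries was compared with the mean profile of the others of the 6. Spearman's rho across enzymes was 0.90 to 1.00. This is a description with no test, in libraries that were used to pick the enzymes.

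In the other 18 libraries Cela1 had the largest mean share. Cela1 made up 28.1% to 92.9% of the summed TPM in WT pre-tx, 54.3% to 97.0% in Cat-Tg post-tx and 36.9% to 81.2% in WT post-tx libraries. Over the other 9 enzymes, rho with the Cat-Tg pre-tx profile was −0.19 to 0.82 in WT pre-tx, 0.33 to 0.85 in Cat-Tg post-tx and 0.05 to 0.83 in WT post-tx libraries. Those libraries had only 76.6 to 853.6 counts over the 9 genes, against 6590.5 to 11857.8 in the Cat-Tg pre-tx libraries, and the part of counting error in this scatter was not tested.

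**Figure D2:**
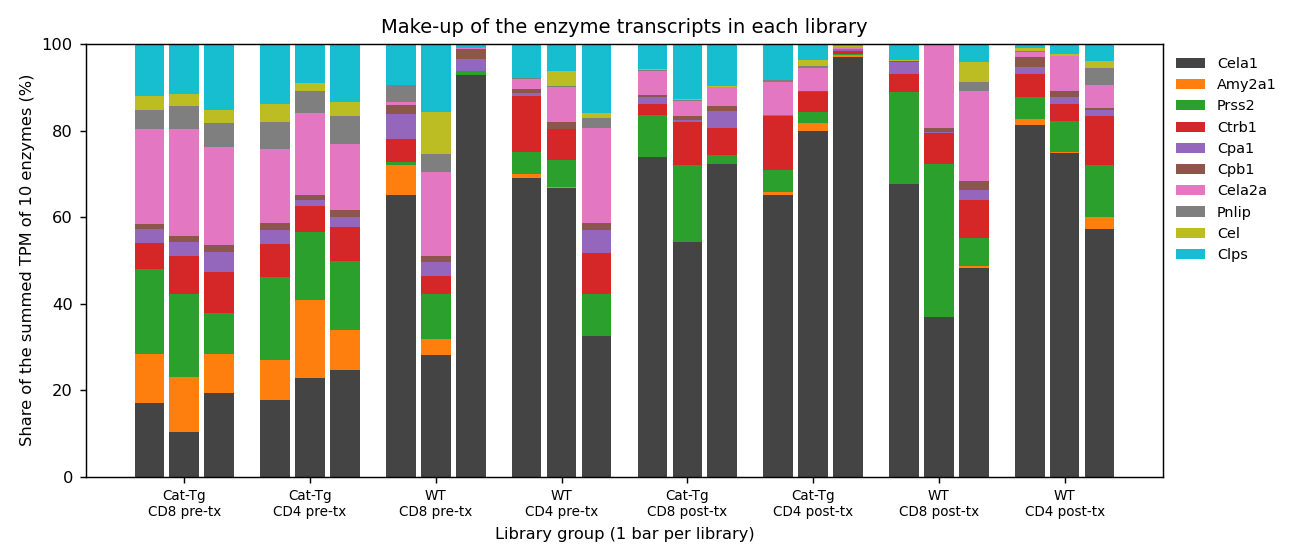
Each bar is 1 library and shows the share (%) of each enzyme in the summed TPM of the 10, with Cela1 in dark grey at the base. The 6 Cat-Tg pre-tx bars have a like pattern with Cela1 at 10.2% to 24.6%, while Cela1 takes 54.3% to 97.0% of the 6 Cat-Tg post-tx bars.

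Other exocrine genes gave a mixed picture. Of 35 further genes of the exocrine pancreas, 22 were tested in CD8+ and 24 in CD4+ cells. Pre-tx, 9 were called higher and none lower in CD8+ and 13 higher and 1 lower in CD4+ Cat-Tg cells. Over all genes, 4.51% of 15975 were called higher in CD8+ and 13.3% of 17243 in CD4+ cells. The genes called higher include Amy2a2, Amy2a3 and Amy2a4, whose counts are identical, and genes that share sequence with the members. Their sum was 542 to 686 CPM in Cat-Tg pre-tx and 103 to 323 CPM in WT pre-tx libraries. The most abundant was Amy2a5, another amylase gene, at 84.0 to 172 CPM against 1.15 to 6.54. The trypsinogen genes Try4 and Try5 were at 25.7 to 65.7 against 0 to 3.19 and at 23.9 to 50.6 against 0.234 to 2.85 CPM. Reg2, a secreted lectin-like protein of the regenerating islet family, did not share the pattern, with 35.3 to 83.6 CPM in Cat-Tg pre-tx and 56.7 to 269 CPM in WT pre-tx. Gp2, a zymogen granule membrane protein, was the 1 gene called lower, with means of 0.0246 ± 0.0424 and 2.41 ± 2.16 CPM (SD, n = 3) in CD4+ Cat-Tg and WT cells, where the Cat-Tg libraries had at most 1.6 counts. In CD8+ cells its means were 4.19 ± 6.77 and 0.131 ± 0.0995 CPM (SD, n = 3).

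Some of these genes cannot be told apart by short reads. Of the 31-base words of Amy2a1, 96.4% occur in other genes, among them Amy2a2, Amy2a3, Amy2a4, Amy2a5 and Amy2b, and Amy2a2, Amy2a3 and Amy2a4 have identical estimated counts in every library. Of the words of Prss2, 22.5% are shared with other trypsinogens or related genes, and of Cela2a 26.9% with Ctrc. Cela1, Ctrb1, Cpa1, Pnlip, Cel and Clps share none. Summed as families, the amylase 2 genes were at 327 to 510 CPM in Cat-Tg pre-tx against 1.96 to 16.6 in WT pre-tx. The trypsinogens were at 106 to 173 against 1.19 to 9.76 CPM. The non-overlap thus held with the reads of each family summed, on the contrast used to pick the members.

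The regulators of the acinar program were low in the libraries with high enzyme levels. Ptf1a had 0 counts in all 6 Cat-Tg pre-tx libraries, which allows up to 3 counts in each. It was the only 1 of 8 regulators without a count there. The sum of 8 such regulators was 1.08 to 8.43 CPM in Cat-Tg pre-tx and 5.31 to 19.2 CPM in WT pre-tx, and none of the 3 tested in CD8+ or the 2 tested in CD4+ cells was called in edgeR. The insulin genes were also near 0, with Ins1 at most 0.555 and Ins2 at most 0.338 CPM in Cat-Tg pre-tx. Of 12 islet genes, 3 were tested in CD8+ and 4 in CD4+ cells. In each, 1 was called higher, where 4.51% (CD8+) and 13.3% (CD4+) of all genes were. It was Pcsk1, a prohormone convertase, at 3.08 to 7.86 CPM against 0 to 1.29.

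Across the 6 Cat-Tg pre-tx libraries, the highest sum of the 10 enzymes was 1.32 times the lowest. Without Cela1, a choice made after seeing the data, the other 9 summed to 312 to 368 CPM, a ratio of 1.18. The ratio was 1.27 for the further exocrine genes, 1.56 for the amylase 2 family, 1.63 for the trypsinogens, 1.51 for 11 genes of mesothelium and stroma (113 to 170 CPM), 4.26 for 12 liver genes (123 to 524 CPM), 9.13 for 4 haemoglobin genes (1320 to 12000 CPM), 5.88 for 11 myeloid genes and 3.01 for 12 B cell genes. It was 1.54 for the 12 T cell genes. These ratios are descriptions with no test, over lists of unequal size and in libraries that were used to pick the enzymes.

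**Figure D3:**
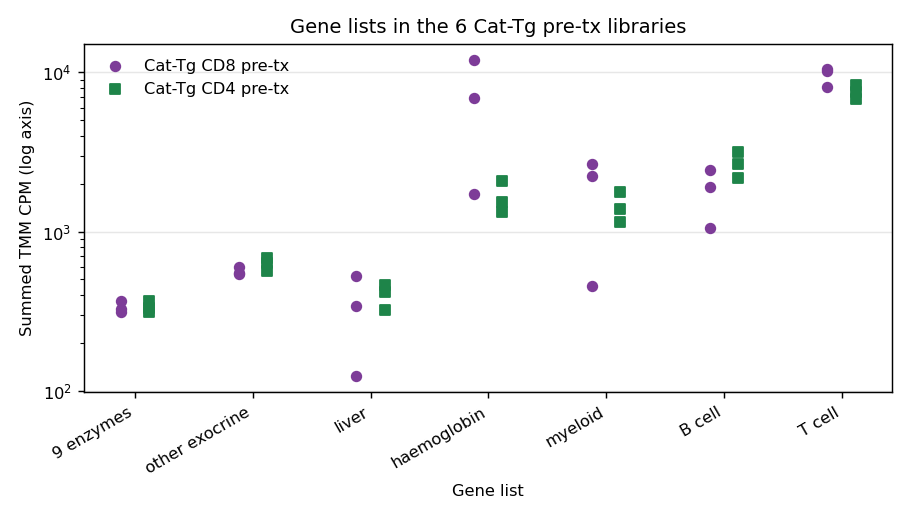
Each point is the summed TMM CPM (log axis) of a gene list in 1 Cat-Tg pre-tx library, circles for CD8 and squares for CD4. The 9 enzymes lie between 312 and 368 CPM in all 6, while the haemoglobin list spreads from 1320 to 12000 CPM.

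Other transcripts were also high in the same 6 libraries. Ddx3y, a gene of the Y chromosome, was at 33.2 to 112 CPM in Cat-Tg pre-tx and at 0.0949 to 0.448 CPM in WT pre-tx, and at most 0.441 CPM post-tx. A list of 4 Y-linked genes with Ddx3y summed to 133 to 282 CPM in Cat-Tg pre-tx and to 21.2 to 57.2 CPM in WT pre-tx. Of these, 2 of 4 were called higher in CD8+ and 4 of 4 in CD4+ Cat-Tg pre-tx cells, where 4.51% and 13.3% of all genes were. The 13 mitochondrial protein genes summed to 31600 to 60000 CPM in Cat-Tg pre-tx and to 4570 to 21400 CPM in WT pre-tx. They were as high in some post-tx libraries, with 18700 to 56400 CPM in WT CD8+ post-tx. The part of these transcripts in the enzyme levels was not tested. The paper reports that mice were matched for age and sex. Genotype, any difference in sex of the mice and library series cannot be told apart. In bulk libraries more cells of a type and more RNA per cell cannot be told apart either. Of the liver list, none was called higher and 1 was called lower in Cat-Tg pre-tx in either cell type.

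The genes with the pattern most like the sum of the 10 were searched for among 14843 genes over all 24 libraries. By Pearson's r of log2(TMM CPM + 0.5), the 10 closest were Amy2a5 (0.925), Pcsk1 (0.919), Amy2b (0.914), Ddx3y (0.91), Gm28253 (0.905), Try5 (0.904), Amy2a2, Amy2a3 and Amy2a4 (0.903 each) and Eif2s3y (0.901), a second Y-linked gene. These values describe mainly 2 clusters of libraries, 6 high and 18 lower, and carry no p. Of the 18, the Cat-Tg CD4+ post-tx libraries had the highest sums.

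After transplantation the genotypes were compared by a test, since the post-tx libraries had no part in picking the genes. The test was still not fully separate from the picking. Its filter and its estimate of the spread also used the pre-tx libraries of the cell type, and members low post-tx passed the filter through these. In CD8+ post-tx cells none of the 10 differed between Cat-Tg and WT by edgeR's quasi-likelihood test, where 1.67% of 15975 genes were called. At an unadjusted p under 0.05 there were 2, Prss2 and Cel, and DESeq2 and limma-voom also called none. The adjusted p of the 10 ran from 0.219 to 0.672. Amy2a1 and Pnlip had at most 3 counts in each library of a group, and of the other 8, 7 had a negative log2 fold change, with a median of −1.44 beside −0.18 over all genes.

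Prss2 was at 0.978, 2.25 and 0.400 CPM in the Cat-Tg CD8+ post-tx libraries and at 4.72, 11.5 and 2.03 CPM in the WT libraries. The groups overlapped, and the fitted difference was −2.43 on the log2 scale (SE 1.06, adjusted p = 0.226). Cela2a was at 0.819, 0.623 and 1.29 CPM against 0, 8.0 and 7.49 CPM, so that a single WT library without a count lay below all Cat-Tg libraries. Cel had 1, 1 and 4 counts against 1, 0 and 119 counts, and its difference came from 1 WT library. Cela1 was at 10.4, 10.3 and 22.1 CPM against 21.8, 17.0 and 21.8 CPM, a log2 change of −0.58 with an SE of 0.53 and an adjusted p of 0.576.

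In CD4+ post-tx cells 1 of the 10 differed, Cela1, where 10.2% of 17243 genes were called in either direction and 3.69% were called higher. None of the 10 also reached a log2 fold change of 2, which 2.3% of genes did. Cela1 was at 70.3, 71.2 and 61.9 CPM in Cat-Tg and at 11.8, 21.8 and 22.8 CPM in WT libraries. The groups did not overlap, the only member of which this was true, but the share of all genes without overlap is not given here. The log2 fold change was 1.63 (SE 0.33), 3.09-fold with an interval of 1.96 to 4.86 from the SE. By edgeR's quasi-likelihood test the adjusted p was 0.00625. Per length, Cela1 was at 91.4, 113 and 91.7 TPM against 21.5, 39.4 and 34.0 TPM. A share of 1 in 10 is near the background of 10.2%, so the count says nothing particular of the enzymes.

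The other 9 enzymes did not pass the test, and whether they differed from Cela1 was not tested. They summed to 35.9, 16.8 and 2.12 CPM in the Cat-Tg CD4+ post-tx libraries, a range that includes the WT libraries at 3.51, 6.42 and 15.6 CPM. Clps was the nearest to a call, at 5.39, 1.60 and 0.180 CPM against 0.0344, 0.275 and 0.700 CPM, with overlapping groups and a log2 change of 2.59 with an SE of 0.98 (edgeR, unadjusted p = 0.018, adjusted p = 0.109). It passed with DESeq2 and without replicate 3 of the Cat-Tg libraries (adjusted p = 0.015 and 0.0434). Cela2a was at 10.1, 4.76 and 0.181 CPM against 0.103, 1.53 and 2.18 CPM, a log2 change of 1.75 with an SE of 1.12 and an adjusted p of 0.387. Ctrb1 was at 13.0, 3.43 and 0.270 CPM against 0.653, 0.825 and 3.5 CPM, a log2 change of 1.55 with an SE of 0.91 and an adjusted p of 0.321. In size these changes were like that of Cela1, with wider errors, and they were the largest positive changes of the other 9 enzymes. The rest ran from −1.38 for Cpa1 to 0.84 for Amy2a1. The median log2 fold change of the 10 was 0.64 beside −0.19 over all genes, with 7 positive and 3 negative.

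**Figure D4:**
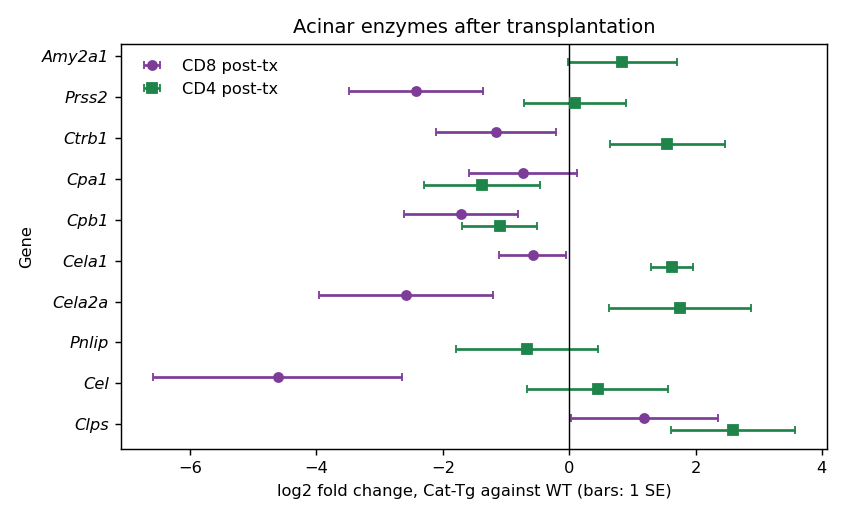
Points give the log2 fold change of Cat-Tg against WT post-tx with 1 SE for CD8 (circles) and CD4 (squares), without the CD8 points of Amy2a1 and Pnlip, which had at most 3 counts in each library of a group. Only Cela1 in CD4 passed the test, at 1.63 with an SE of 0.33.

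The Cela1 effect was set between the cell types in a fit of all 24 libraries, in which the mice shared by the cell types were not modelled. The log2 difference, CD4+ minus CD8+, was 2.36 with an SE of 0.61. In edgeR its p was 0.000737 and its adjusted p 0.0703, so it was not called, where 0.629% of 19092 genes were. A difference of the Cat-Tg effect between CD4+ and CD8+ cells was therefore not shown for Cela1.

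The 3 Cat-Tg CD4+ post-tx libraries also differed in other lists. All 9 of the erythroid genes tested, 4 of 7 plasma cell genes and 5 of 11 myeloid genes were called higher there, and 9 of 11 liver genes were called lower with 1 higher. Over all 17243 genes tested, 3.69% were called higher and 1117 genes were called lower. Summed levels were 4600 to 27100 against 650 to 1110 CPM for the erythroid list and 3000 to 4180 against 722 to 1230 CPM for the myeloid list. The liver list, in which most genes were called lower, summed to more in Cat-Tg, 2020 to 2950 against 637 to 1300 CPM. Their part in the Cela1 difference was not tested. Of Cela1 counts, 92.0% were in the transcript Cela1-201 in these libraries, against 98.1% in Cat-Tg CD4+ pre-tx cells.

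**Figure D5:**
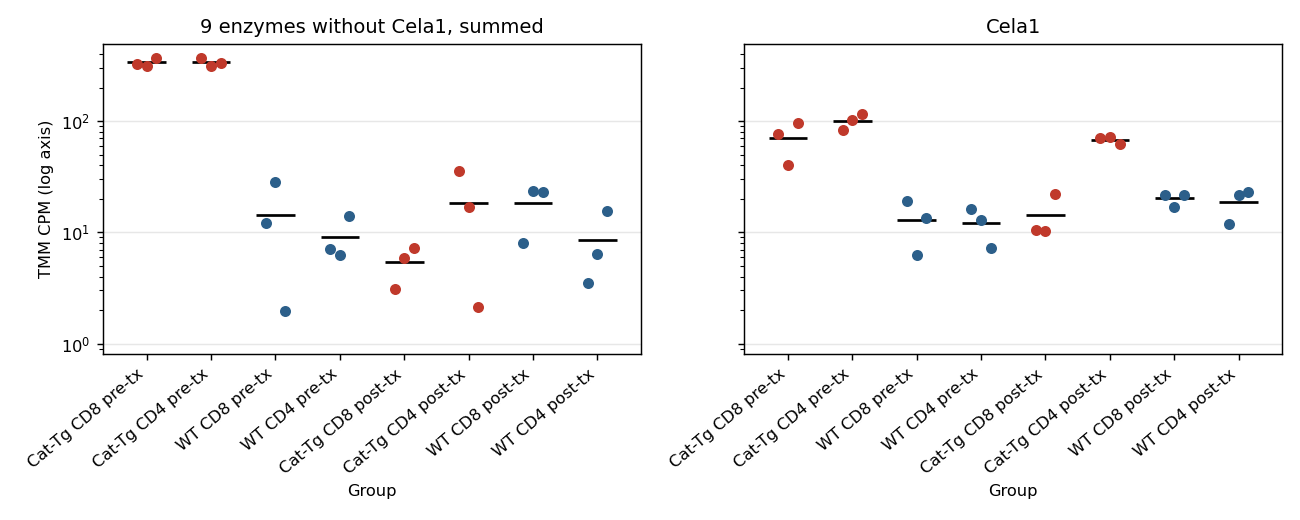
Each point is 1 library (red Cat-Tg, blue WT) and each line a group mean, in TMM CPM on a log axis, for the 9 enzymes without Cela1 (left) and for Cela1 (right). The 9 enzymes are at 312 to 368 CPM in Cat-Tg pre-tx and at most 35.9 CPM in all other libraries, while Cela1 is at 61.9 to 71.2 CPM in Cat-Tg CD4 post-tx as well.

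Across the 8 groups Cela1 was highest in Cat-Tg CD4+ pre-tx cells at 101 ± 16.0 CPM (SD, n = 3), followed by Cat-Tg CD8+ pre-tx at 71.1 ± 28.6 and Cat-Tg CD4+ post-tx at 67.8 ± 5.13 CPM. The libraries of the Cat-Tg CD8+ pre-tx group overlapped with those of both others. The 5 other groups lay between 12.1 ± 4.57 CPM in WT CD4+ pre-tx and 20.2 ± 2.75 CPM in WT CD8+ post-tx, and the libraries of neighbouring groups overlapped. The order of the 9 other enzymes was not the same: the Cat-Tg pre-tx groups were both at 336 CPM, and the next groups were at 18.3 CPM. In the exocrine list of 35 genes, post-tx, none of the 22 tested was called in CD8+ cells (edgeR), where 1.67% of all genes were. In CD4+ cells 1 of the 24 was called, where 10.2% of all genes were. It was Klk1, a kallikrein at 0.288 to 2.75 CPM in Cat-Tg with at most 3.0 counts in each WT library.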

How the data were processed

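RNA of sorted T cells was made into cDNA and libraries with SMART-Seq HT and Nextera XT per the labels. The authors obtained estimated counts and TPM per transcript by pseudoalignment with kallisto 0.46.2; the submitters' processing notes also name limma, and build mm9. Deposited estimated counts are not normalized; the deposited TPM also correct for effective length and sum to the same total in each library. Here, 116428 of 117497 transcripts matched GENCODE M21 (99.64% to 99.76% of counts), were summed to 35868 genes and rounded. The authors normalized TPM and fitted voom and limma; here counts were used, as a count model needs them. All 12 libraries of a cell type were fitted in edgeR 4.0.16 (R 4.3.3; TMM, robust quasi-likelihood test) on genes over 1 CPM in at least 3 libraries, with Benjamini-Hochberg adjustment over all genes; calls have an adjusted p of at most 0.05. SE is the absolute log2 fold change over the square root of F. P values measure the spread between the libraries of 3 mice per group. Shares are of TPM; likeness used genes with a mean of at least 1 CPM and a pseudocount of 0.5. Alternatives were DESeq2 1.42.0, limma-voom (limma 3.58.1), other size factors and filters, 6 libraries only, length-scaled TPM, families summed, a replicate block and each library left out; 9 enzymes without Cela1 and the CD4+ minus CD8+ difference were chosen after seeing the data. Fits were tested on simulated data with the same spread for all genes and changes set only in genes at higher levels. That test does not cover members at a few counts. Members, lists and named genes (all members, up to 5 genes of a list by level, family members, the 10 most alike, coreceptors) were chosen with earlier results of these data known. Gp2, Klk1, Ptf1a, Ins1 and Ins2 were named after seeing their values. Promoter windows are RefSeq's on GRCm38.p6. Floors of 3 counts cover counting error only, and intervals from the SE the spread between libraries.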

Additional observations from a re-analysis of the deposited data

How the results depend on the processing

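In CD8+ post-tx cells 0 members were called under all alternatives run, and in CD4+ post-tx cells Cela1 was called under all 15, with log2 fold changes of 1.38 to 1.79. Some members had no adjusted p under some alternatives and could not be called there. In CD8+ cells Amy2a1, Cela2a, Clps, Cpa1, Cpb1 and Pnlip had an adjusted p in 14 of the 15 and Cel in 13. In CD4+ cells Amy2a1, Cel, Clps, Cpa1 and Cpb1 had an adjusted p in 14 and Pnlip in 13. The CD4+ count was 2 with DESeq2, and 1 to 2 leaving out a library, Clps being the second. Over all genes, the CD8+ count of 266 was 1308 with DESeq2, 551 without a filter, 30 with 6 libraries, 110 with the replicate block and 5 to 570 leaving out a library (6 and 5 without Cat-Tg replicate 1 or 2); the CD4+ count of 1754 was 2678 with DESeq2, 1017 with 6 libraries and 771 to 1846 leaving out a library (911 and 800 without Cat-Tg replicate 2 or 3, 771 without WT replicate 2). No direction can be given for low members. In CD4+, the log2 fold change of Prss2 was −1.23 with limma-voom, −0.08 from length-scaled TPM and −0.02 with the replicate block, that of Pnlip 1.32 with limma-voom and 0.63 with the block, and that of Cel −0.86 and −0.15. Leaving out a library gave −0.01 to 2.46 for Amy2a1, −1.15 to 0.82 for Prss2, −0.02 to 2.63 for Ctrb1, −1.23 to 3.16 for Pnlip and −2.83 to 1.5 for Cel in CD4+, and −4.36 to 0.0 for Amy2a1, −1.96 to 4.12 for Pnlip and −5.4 to 1.01 for Cel in CD8+, where these fitted values rest on a few counts. With the replicate block, Cela1 in CD4+ was 1.63. Same-numbered libraries of the 2 genotypes correlated at 0.252, 0.0498 and 0.174 in CD4+ and 0.163, −0.0471 and −0.247 in CD8+ post-tx. Same-numbered CD8+ and CD4+ post-tx libraries correlated at −0.127, 0.0833 and −0.177 in Cat-Tg and −0.201, −0.0296 and 0.216 in WT. These cell types share animals, so low correlations cannot tell whether the numbers pair the samples. The mean Cat-Tg pre-tx sum became 822 (CD8+) and 891 (CD4+) CPM with families summed, 336 in both without Cela1, and in CD4+ 494 CPM by library total and 526 as TPM. The Cela2a share was 13.5% with families summed and 24.7% without Cela1. Of the 10 most alike genes 6 were exocrine, 2 with a pseudocount of 0.1 and 1 by Spearman's rho. The causes were not tested. Members at a few counts post-tx limit what 3 libraries can show.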
